A study of Mus musculus with 6 samples.

Results

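The genes of the aminoacyl-tRNA synthetases were followed in RAW264.7 cells, an established mouse macrophage-like line, that had attached to acoustic devices. They were picked from the gene table by symbol (a letter for the amino acid followed by ars, with or without an ending 1, 2, a or b, plus Eprs and Tarsl2), which gave 38 of 16108 genes. The ending 2 marked 17 mitochondrial enzymes, and the other 21 were counted as cytosolic. In the acoustics-on group (3 libraries) the devices were driven for 48 h at 18 V peak to peak and 5 kHz. In the acoustics-off group (3 libraries) cells sat on such devices for 48 h with no drive. All cells were third-passage cells of this line with no genetic change stated in the labels, and a petri-dish group was not analysed here. Nothing in the labels tells if libraries within a group are from independent cultures; p-values here therefore reflect spread between samples that could be purely technical.

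An aminoacyl-tRNA synthetase joins an amino acid to its transfer RNA, the step that sets which amino acid a codon receives. The cytosol and the mitochondrion use mostly separate enzymes, all encoded in the nucleus. In mammalian cells several cytosolic enzymes sit in a multi-synthetase complex with the scaffold proteins AIMP1, AIMP2 and EEF1E1. Many cytosolic synthetase genes are targets of ATF4, the transcription factor of the amino acid response, which is made when uncharged transfer RNA activates the kinase GCN2 (gene Eif2ak4) or when other stress leads to phosphorylated eIF2alpha. ATF4 acts with C/EBP partners on a short composite DNA element.

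None of the 38 synthetase genes passed the test between acoustics on and acoustics off (limma on log2(FPKM + 1), Benjamini-Hochberg adjusted over all genes, threshold 0.05). Among all 11664 tested genes, 242 passed (2.07%), 175 higher (1.5%) and 67 lower (0.574%). The smallest adjusted p of a synthetase gene was 0.16, for Farsb. An unadjusted p under 0.05 was reached by 3 of them (7.89%), Farsb and Cars2 included, against 19.7% of all tested genes. The groups did not overlap in 11 of the 38 genes (28.9%), against 34.8% of all tested genes. Of these, 7 were higher with acoustics on, against 17.1% of all, and 4 lower, against 17.7%. In the authors' deposited table, 0 of the 38 had an adjusted p under 0.05, against 7.56% of all genes given one there (5.08% higher and 2.49% lower). In the authors' deposited table Farsb was again the lowest, with a log2 fold change of 0.44 and an adjusted p of 0.056. A p that misses the threshold does not show that a gene was equal in both groups.

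The filter on low values removed 0 of the 38. The authors' deposited mean of normalised counts ran from 255.7 for Cars2 to 18168 for Sars, so counting error alone gives a coefficient of variation between 6.25% and 0.742%. All 10 macrophage markers were present, with a summed level of 20169 to 27178 FPKM with acoustics on and 28451 to 30657 FPKM with acoustics off. Most of this sum was Lyz2, at 16356 to 23205 FPKM with acoustics on and 23951 to 26096 FPKM with acoustics off. Without overlap, 6 of the 10 were lower with acoustics on, against 17.7% of all tested genes. The other 4, Fcgr1, Spi1, Cd14 and Fcer1g, had positive log2 differences and overlapping groups. The part of these marker differences in the results below was not tested. Markers of fibroblasts summed to at most 1.86 FPKM with acoustics on and 1.62 FPKM with acoustics off, those of epithelial, T, B and endothelial cells stayed below these, and the 3 neutrophil markers were not listed. In bulk RNA, fewer cells of a type and less RNA per cell cannot be told apart.

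Cytosolic genes were the more abundant class. The median cytosolic gene averaged 51.7 FPKM with acoustics on and 41.7 FPKM with acoustics off, and the median mitochondrial gene 10.2 and 9.49 FPKM. Sars, for the seryl enzyme, was the most abundant at 288 ± 22.3 FPKM with acoustics on and 276 ± 10.5 FPKM with acoustics off (SD, n = 3 each). Next came Qars, for the glutaminyl enzyme, at 152 ± 22.96 FPKM with acoustics on and 171 ± 9.26 FPKM with acoustics off. The lowest was Mars2, for the mitochondrial methionyl enzyme, at 0.761 ± 0.177 FPKM with acoustics on and 0.837 ± 0.0129 FPKM with acoustics off. With acoustics off, 14 of the 17 mitochondrial genes averaged under 15 FPKM. FPKM are per transcript length, so the order of genes depends on the length taken for each, which is unknown here. Mars2 has a longest transcript of 11294 bases, and its deposited mean of normalised counts was 402. That was above Cars2 (256), Pars2 (288), Sars2 (337) and Ears2 (393), all higher than Mars2 in FPKM. Levels of different genes, in the pairs below too, are therefore compared as FPKM only.

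The cytosolic genes set the acoustics-on libraries apart from one another. Measured from the acoustics-off mean, the median cytosolic gene had a log2 difference of 0.24 for acoustics-on replicate 1, -0.086 for replicate 2 and 0.24 for replicate 3. The median mitochondrial gene had 0.12, 0.089 and 0.030, and the median of all tested genes -0.035, -0.0012 and -0.0057. Replicates 1 and 3 thus held more, and replicate 2 slightly less, of the median cytosolic transcript than the acoustics-off libraries did.

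In acoustics-on replicate 1, 14 of 21 cytosolic genes exceeded the highest acoustics-off value (43.1% of all tested genes did) and 6 lay under the lowest (46.8% of all). For replicate 2 the counts were 3 above (38.4% of all) and 12 below (39.1% of all). For replicate 3 they were 17 above (37.1% of all) and 3 below (38.8% of all). Mitochondrial genes above the range numbered 9, 9 and 7 of 17 in these libraries, and those below it 6, 3 and 4.

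**Figure D1:**
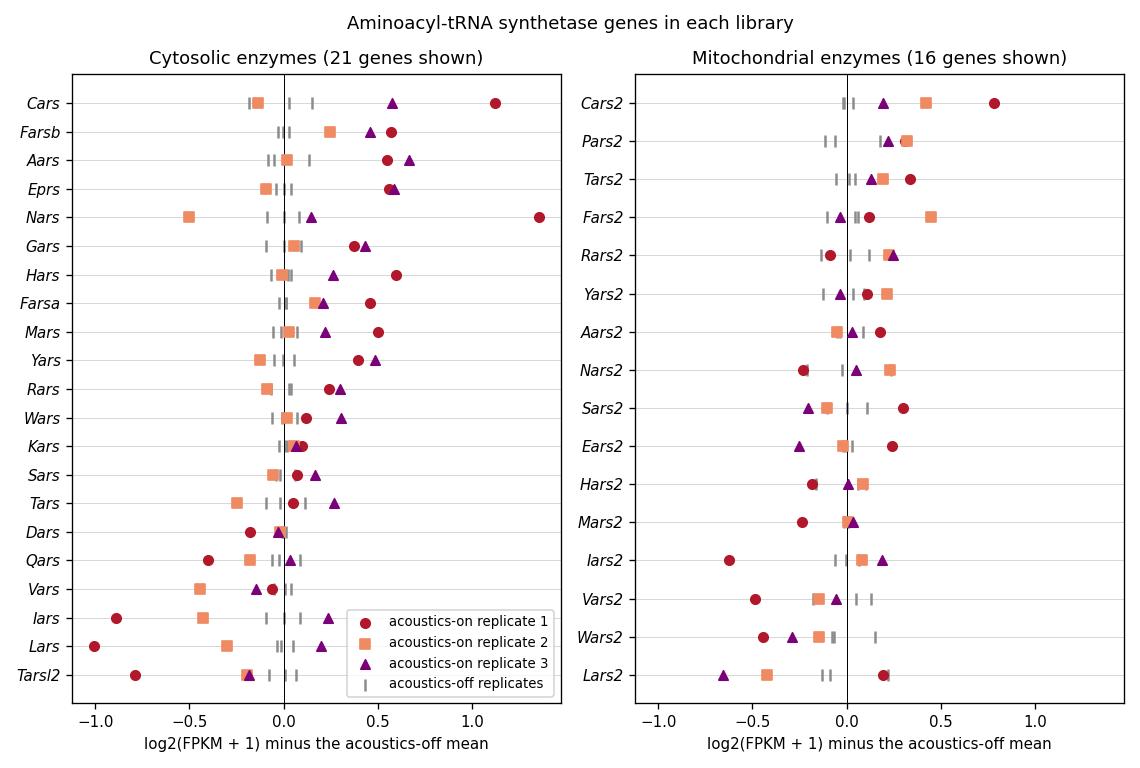
Each line is a synthetase gene, with cytosolic and mitochondrial genes in separate panels (1 of the 17 mitochondrial genes is not drawn), and the horizontal axis is log2(FPKM + 1) minus the mean of the 3 acoustics-off libraries. The acoustics-on and acoustics-off libraries have their own symbols. In Cars, Aars, Eprs, Gars, Hars, Mars and Yars, acoustics-on replicates 1 and 3 lie beyond every acoustics-off library and replicate 2 does not, while in Iars and Lars replicate 1 lies far to the left.

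Above the acoustics-off range in both acoustics-on replicates 1 and 3 were 14 of 21 cytosolic and 4 of 17 mitochondrial genes, against 21.6% of all tested genes. Of these, 11 cytosolic and 0 mitochondrial genes did not exceed it in replicate 2, against 4.53% of all. This pattern was defined after its values were seen and is given as a description. It covers Aars, Cars, Gars, Hars, Nars, Sars, Wars and Yars, whose enzymes work outside the complex, and Eprs, Mars and Rars, whose enzymes are in it.

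**Figure D2:**
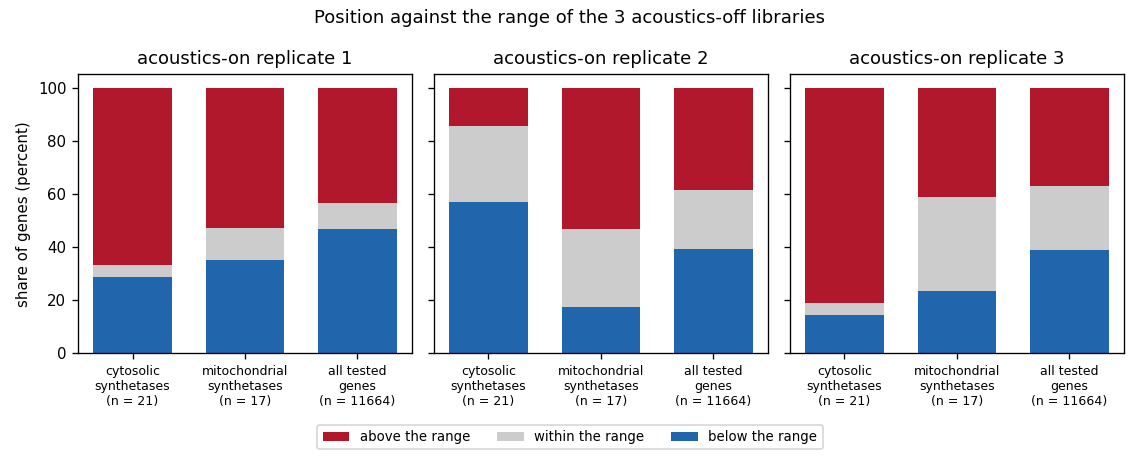
Bars give the percent of genes above, within and below the range of the 3 acoustics-off libraries in each acoustics-on library, for the 21 cytosolic synthetases, the 17 mitochondrial synthetases and the 11664 tested genes. Above the range were 66.7%, 14.3% and 81% of cytosolic genes in replicates 1, 2 and 3.

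Among enzymes outside the complex, Aars, which charges alanine (chromosome 8, 111033144 to 111057664, plus strand, GRCm38), had 36.7, 25.1 and 39.9 FPKM with acoustics on, against 23.9, 27.4 and 23.4 FPKM with acoustics off, in the order of replicates 1, 2 and 3. Acoustics-on replicates 1 and 3 were above every acoustics-off library and replicate 2 fell among them (log2 difference 0.41, SE 0.19, 95% interval -0.036 to 0.85, adjusted p = 0.28). Cars, for the cysteinyl enzyme (chromosome 7, 143557230 to 143600090, minus strand), had 50.6, 20.5 and 34.3 FPKM with acoustics on, against 23.2, 25.3 and 19.9 FPKM with acoustics off. Replicates 1 and 3 of the acoustics-on group were again the high ones. On the log2 scale no cytosolic gene differed by more in the positive direction (log2 difference 0.52, SE 0.30, 95% interval -0.19 to 1.24, adjusted p = 0.35), and it was 0.22 without acoustics-on replicate 1 and 0.85 without replicate 2.

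Gars encodes the glycyl enzyme of both compartments and had 78.9, 63.1 and 82.1 FPKM with acoustics on, against 60.7, 64.9 and 56.8 FPKM with acoustics off (log2 difference 0.29, SE 0.14, adjusted p = 0.31). Nars, which charges asparagine and was named after its values were seen, had 49.9, 13.1 and 21.04 FPKM with acoustics on, against 17.8, 20.1 and 18.9 FPKM with acoustics off. No other cytosolic gene had so wide a range of acoustics-on values on the log2 scale. The estimate (log2 difference 0.33, SE 0.42, 95% interval -0.67 to 1.33, adjusted p = 0.65) was -0.18 without acoustics-on replicate 1 and 0.75 without replicate 2. Yars, for the tyrosyl enzyme and also named after its values were seen, had 57.6, 39.9 and 61.6 FPKM with acoustics on, against 43.5, 42.1 and 45.3 FPKM with acoustics off (log2 difference 0.25, SE 0.18, adjusted p = 0.43), with acoustics-on replicate 2 below every acoustics-off library.

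Wars, for the tryptophanyl enzyme, is known in human cells as a gene induced by interferon gamma. It had 39.2, 36.4 and 44.7 FPKM with acoustics on, against 35.8, 37.9 and 34.4 FPKM with acoustics off. Acoustics-on replicate 2 lay inside the acoustics-off range (log2 difference 0.15, SE 0.12, 95% interval -0.14 to 0.44, adjusted p = 0.49).

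The phenylalanyl enzyme is built from an alpha subunit (Farsa) and a beta subunit (Farsb), and both genes were higher in every acoustics-on library than in every acoustics-off library. Farsb (chromosome 1, 78417975 to 78488897, minus strand) had 116, 92.4 and 107 FPKM with acoustics on, against 76.2, 79.3 and 77.6 FPKM with acoustics off (log2 difference 0.43, SE 0.13, 95% interval 0.12 to 0.73, adjusted p = 0.16). Farsa (chromosome 8, 84856989 to 84869257, plus strand) had 57.2, 46.5 and 47.8 FPKM with acoustics on, against 40.6, 41.6 and 41.7 FPKM with acoustics off (log2 difference 0.28, SE 0.12, 95% interval -0.013 to 0.57, adjusted p = 0.27). In both subunits acoustics-on replicate 1 was the highest library and replicate 2 the lowest of its group. After the trends with transcript length and GC content were removed, the log2 difference was 0.26 for Farsb and 0.29 for Farsa.

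Genes of the multi-synthetase complex did not share a direction. Of the 8, 4 had a positive and 4 a negative log2 difference, between -0.37 and 0.35, with a median of -0.00053. The 13 other cytosolic genes had 11 positive and 2 negative differences and a median of 0.28, and all tested genes a median of -0.027. Split by the fold of the catalytic domain, class I genes (18) had 8 positive differences and a median of -0.039, and class II genes (19) had 15 and 0.18, with Eprs in both classes and left out. Eprs, whose product charges glutamate and proline (chromosome 1, 185363044 to 185428360, plus strand), had 69.6, 44.00 and 70.9 FPKM with acoustics on, against 48.2, 47.1 and 45.5 FPKM with acoustics off (log2 difference 0.35, SE 0.20, 95% interval -0.11 to 0.82, adjusted p = 0.34). Mars, for the methionyl enzyme, had 54.5, 38.96 and 44.6 FPKM with acoustics on, against 37.8, 40.1 and 36.6 FPKM with acoustics off (log2 difference 0.25, SE 0.15, adjusted p = 0.36). In both, acoustics-on replicates 1 and 3 were the high libraries.

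Iars and Lars, for the isoleucyl and leucyl enzymes, ordered the acoustics-on libraries another way. Iars had 15.2, 21.3 and 34.4 FPKM with acoustics on, against 29.1, 30.9 and 27.1 FPKM with acoustics off (log2 difference -0.36, SE 0.27, adjusted p = 0.45). Lars had 15.2, 25.3 and 36.3 FPKM with acoustics on, against 31.1, 32.6 and 30.8 FPKM with acoustics off (log2 difference -0.37, SE 0.28, adjusted p = 0.46). In both, acoustics-on replicates 1 and 2 were below and replicate 3 above every acoustics-off library. Without acoustics-on replicate 1 the log2 difference was -0.097 for Iars and -0.051 for Lars, and without replicate 3 it was -0.66 and -0.65. Across the 38 genes, the difference of a library from the acoustics-off mean had a Spearman correlation with transcript length of -0.31 for acoustics-on replicate 1, -0.23 for replicate 2 and -0.15 for replicate 3. These are descriptions over genes that share a library, and the part of length in the values was not tested. The longest transcripts of Iars and Lars have 4426 and 3980 bases. Members with a longer one than Iars went both ways in acoustics-on replicate 1. Aars, Eprs and Ears2 (5750, 5638 and 4900 bases) were above the acoustics-off range, and Iars2 and Mars2 (5471 and 11294 bases) below it.

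Kars, for the lysyl enzyme of both compartments, had 80.8, 78.4 and 78.97 FPKM with acoustics on, against 74.00, 75.7 and 76.4 FPKM with acoustics off. The groups did not overlap, but the change was within its error (log2 difference 0.074, SE 0.11, 95% interval -0.18 to 0.33, adjusted p = 0.69) and was -0.040 with the length and GC correction. Dars, for the aspartyl enzyme, was lower in every acoustics-on library, with 57.05, 63.97 and 63.4 FPKM with acoustics on, against 64.3, 64.5 and 65.4 FPKM with acoustics off (log2 difference -0.075, SE 0.11, adjusted p = 0.69). Qars had 129, 151 and 175 FPKM with acoustics on, against 168, 164 and 182 FPKM with acoustics off (log2 difference -0.18, SE 0.15, adjusted p = 0.49), with acoustics-on replicates 1 and 2 below the acoustics-off libraries.

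Tarsl2 and Vars were also lower in all 3 acoustics-on libraries. Tarsl2, which encodes a second cytosolic threonyl enzyme and was the least abundant cytosolic gene, had 3.29, 5.49 and 5.55 FPKM with acoustics on, against 6.78, 6.05 and 6.47 FPKM with acoustics off (log2 difference -0.39, SE 0.19, 95% interval -0.84 to 0.065, adjusted p = 0.30). Vars, for the valyl enzyme and named after its values were seen, had 87.1, 66.8 and 82.3 FPKM with acoustics on, against 91.7, 93.6 and 88.02 FPKM with acoustics off (log2 difference -0.22, SE 0.14, adjusted p = 0.39). The gene of the main threonyl enzyme, Tars, likewise named after its values were seen, had 20.5, 16.5 and 23.99 FPKM with acoustics on, against 19.5, 21.5 and 18.5 FPKM with acoustics off (log2 difference 0.023, SE 0.16, adjusted p = 0.94), and its groups overlapped.

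**Figure D3:**
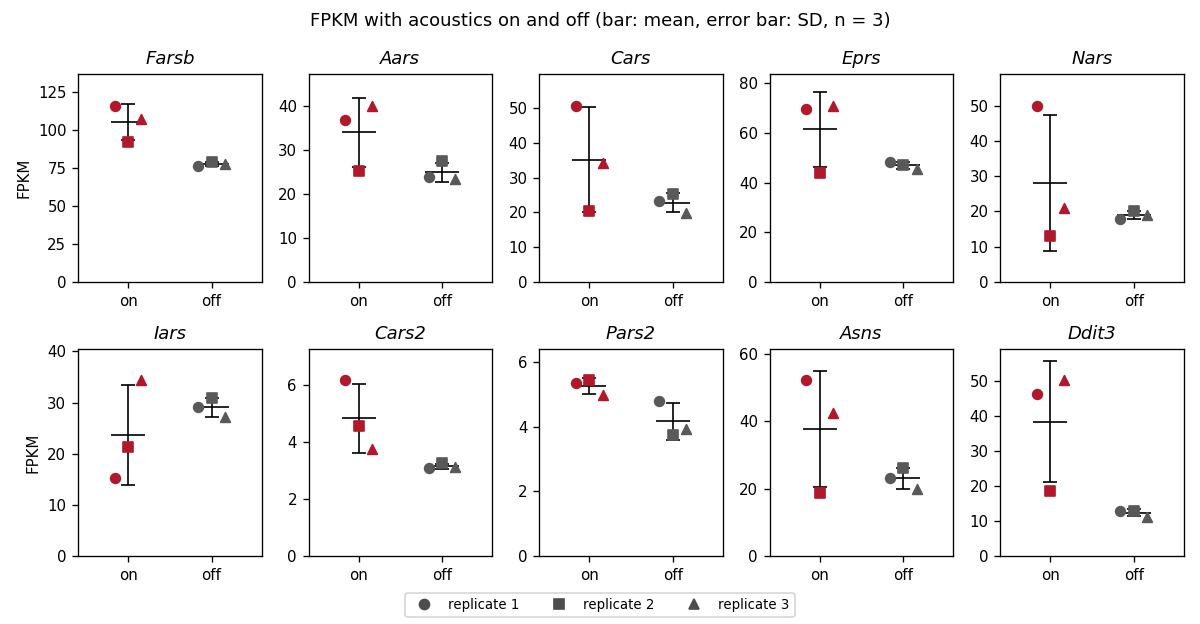
FPKM of 8 synthetase genes and of the ATF4 targets Asns and Ddit3, with acoustics on at the left and off at the right of each panel. Symbols are replicates 1 to 3, horizontal bars the mean and error bars the SD (n = 3). In Eprs, Nars, Iars and Asns acoustics-on replicate 2 lies below the acoustics-off symbols, while in Farsb, Cars2, Pars2 and Ddit3 all acoustics-on symbols lie above them.

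Mitochondrial synthetase genes had 9 positive and 8 negative log2 differences, with a median of 0.016, and cytosolic genes 15 positive and 6 negative, with a median of 0.15. The cytosolic median was 0.27 without acoustics-on replicate 2 and 0.079 without replicate 3. Cars2, for the cysteinyl enzyme (chromosome 8, 11513977 to 11550783, minus strand), had 6.17, 4.57 and 3.76 FPKM with acoustics on, against 3.10, 3.26 and 3.12 FPKM with acoustics off (log2 difference 0.47, SE 0.17, 95% interval 0.056 to 0.88, adjusted p = 0.22). Every acoustics-on library was above every acoustics-off library, and acoustics-on replicate 1 was the highest.

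Pars2, for the prolyl enzyme, had 5.36, 5.43 and 4.98 FPKM with acoustics on, against 4.81, 3.75 and 3.92 FPKM with acoustics off (log2 difference 0.28, SE 0.14, adjusted p = 0.29). Tars2, for the threonyl enzyme, had 30.00, 27.1 and 25.8 FPKM with acoustics on, against 22.6, 23.7 and 24.3 FPKM with acoustics off (log2 difference 0.22, SE 0.12, adjusted p = 0.32). Both were higher with acoustics on without overlap. Wars2, for the tryptophanyl enzyme, was the one mitochondrial gene lower without overlap, with 2.24, 2.98 and 2.60 FPKM with acoustics on, against 3.17, 3.20 and 3.89 FPKM with acoustics off (log2 difference -0.29, SE 0.14, adjusted p = 0.30).

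The leucyl enzyme gene Lars2 was the most abundant mitochondrial member, with 77.7, 50.2 and 42.6 FPKM with acoustics on, against 61.7, 79.1 and 63.6 FPKM with acoustics off (log2 difference -0.29, SE 0.23, adjusted p = 0.47). Acoustics-on replicates 2 and 3 lay below the acoustics-off libraries and replicate 1 among them. Vars2, for the valyl enzyme, had 9.04, 11.7 and 12.5 FPKM with acoustics on, against 14.3, 11.4 and 13.5 FPKM with acoustics off (log2 difference -0.23, SE 0.16, adjusted p = 0.43). Fars2, a single-chain phenylalanyl enzyme unlike its cytosolic counterpart, had 12.5, 15.98 and 11.2 FPKM with acoustics on, against 10.6, 11.98 and 11.9 FPKM with acoustics off (log2 difference 0.18, SE 0.16, adjusted p = 0.52). The groups overlapped in both. A further 9 mitochondrial genes had log2 differences between -0.12 and 0.13.

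The 2 classes were then compared within each library. The mean log2(FPKM + 1) of the cytosolic genes exceeded that of the mitochondrial genes by 2.40, 2.08 and 2.54 with acoustics on, against 2.30, 2.31 and 2.22 with acoustics off. Acoustics-on replicate 3 had the highest of the 6 values and acoustics-on replicate 2 the lowest. The means were 2.34 ± 0.23 with acoustics on and 2.28 ± 0.051 with acoustics off (SD, n = 3 each), so their difference of 0.062 was smaller than the spread among the acoustics-on libraries.

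Each mitochondrial gene was also paired with the cytosolic gene for the same amino acid (17 pairs, Eprs serving glutamate and proline and Farsa phenylalanine). The cytosolic gene was the more abundant in all 6 libraries in 15 pairs, and the mitochondrial gene in 2, Lars2 over Lars and Tars2 over Tars. The log2 ratio of cytosolic to mitochondrial was higher with acoustics on in 13 pairs and lower in 4, and the groups overlapped in 15. The log2 ratio of Wars to Wars2 was 3.63, 3.23 and 3.66 with acoustics on, against 3.14, 3.21 and 2.86 with acoustics off, a difference of 0.44. For this pair, an exact two-sided permutation test over the 6 libraries gave p = 0.1, the smallest that 3 against 3 can give, and 0.68 after Benjamini-Hochberg adjustment over the 17 pairs.

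**Figure D4:**
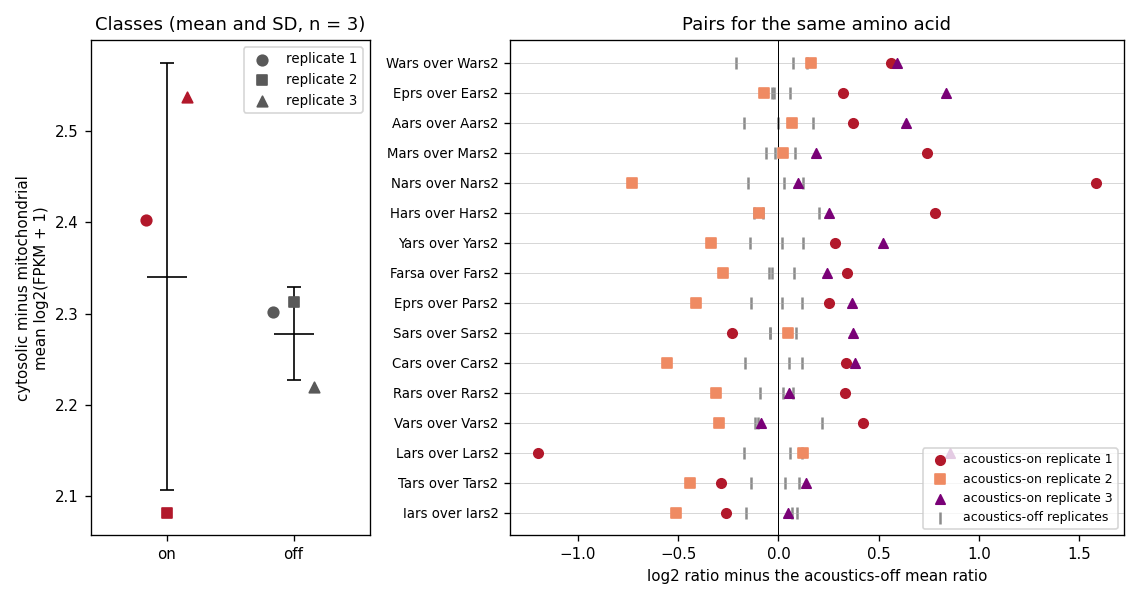
One panel gives the mean log2(FPKM + 1) of the cytosolic genes minus that of the mitochondrial genes in each library, acoustics on left of acoustics off, with mean and SD (n = 3). The other gives, for each pair, the log2 ratio of the cytosolic to the mitochondrial gene minus its acoustics-off mean, and 1 of the 17 pairs is not drawn. In Wars over Wars2 all acoustics-on libraries lie above the acoustics-off libraries.

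Genes of the ATF4 amino acid response were read beside the synthetases. Of 34 listed, 32 were tested, and 1 rose and 0 fell, against 1.5% and 0.574% of all tested genes. The log2 difference was positive in 22 and negative in 10. Without overlap of the groups 8 were higher and 3 lower, against 17.1% and 17.7% of all tested genes. The list had a median log2 difference of 0.16, against -0.027 for all tested genes. The gene that rose was Atf5, a transcription factor whose translation increases under eIF2alpha phosphorylation, with 40.5, 22.9 and 25.9 FPKM with acoustics on, against 12.2, 11.6 and 9.76 FPKM with acoustics off (log2 difference 1.30, SE 0.22, adjusted p = 0.038). Without the filter on low values 0 genes of the list rose, against 0.72% of all genes tested then. Without acoustics-off replicate 1, 2 or 3 the count was also 0, against 0.154%, 0.12% and 0.171% of all. Without acoustics-on replicate 2, 8 of the 32 rose, against 2.08% of all tested genes. Without acoustics-on replicate 1, 3 rose and 1 fell, against 4.75% and 3.08% of all. Leaving out acoustics-on replicate 3 gave 1 that rose and 0 that fell, against 0.54% and 0.129% of all.

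Asns encodes asparagine synthetase, a classical ATF4 target, and had 52.05, 18.8 and 42.3 FPKM with acoustics on, against 23.04, 26.2 and 19.9 FPKM with acoustics off (log2 difference 0.58, SE 0.35, adjusted p = 0.37). Its acoustics-on replicate 2 was below every acoustics-off library, as in 12 of the 21 cytosolic synthetase genes and 39.1% of all tested genes. Ddit3 encodes the transcription factor CHOP and had 46.2, 18.6 and 50.05 FPKM with acoustics on, against 12.9, 12.9 and 11.3 FPKM with acoustics off (log2 difference 1.44, SE 0.35, adjusted p = 0.10). Trib3, a pseudokinase that inhibits ATF4 signalling, had 9.29, 3.02 and 12.5 FPKM with acoustics on, against 1.86, 1.82 and 1.71 FPKM with acoustics off (log2 difference 1.56, SE 0.42, adjusted p = 0.12). In Asns, Ddit3, Trib3 and Atf5, acoustics-on replicate 2 was the lowest of its group. Slc7a11, the cystine transporter gene, had 6.63, 8.60 and 23.7 FPKM with acoustics on, against 1.85, 1.77 and 2.01 FPKM with acoustics off (log2 difference 2.08, SE 0.41, adjusted p = 0.058), with replicate 3 the highest. Atf4 itself had 95.4, 71.96 and 89.3 FPKM with acoustics on, against 73.1, 81.5 and 72.5 FPKM with acoustics off (log2 difference 0.17, SE 0.15, adjusted p = 0.51).

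The 3 genes of the list that were lower in every acoustics-on library were Ddit4, Ppp1r15a and Stc2. Ddit4, for an inhibitor of mTORC1 signalling, had 12.7, 14.6 and 11.6 FPKM with acoustics on, against 21.2, 20.7 and 19.02 FPKM with acoustics off (log2 difference -0.61, SE 0.13, adjusted p = 0.070). Ppp1r15a, for the GADD34 subunit of an eIF2alpha phosphatase, had 22.2, 15.1 and 20.6 FPKM with acoustics on, against 22.98, 28.2 and 28.96 FPKM with acoustics off (log2 difference -0.46, SE 0.18, adjusted p = 0.23). Stc2, for a secreted glycoprotein, had 1.04, 0.957 and 0.722 FPKM with acoustics on, against 1.53, 1.31 and 1.35 FPKM with acoustics off (log2 difference -0.33, SE 0.12, adjusted p = 0.21). The other genes higher without overlap were Chac1, Psph, Eif4ebp1 and Gadd45a, with adjusted p between 0.11 and 0.21. Of the 32 genes, 7 (21.9%) exceeded the acoustics-off range in acoustics-on replicates 1 and 3 and not in replicate 2, against 4.53% of all tested genes.

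None of the 10 scaffold and editing genes passed, against 2.07% of all tested genes. Eef1e1, for the smallest scaffold protein of the complex, had 33.6, 23.5 and 21.9 FPKM with acoustics on, against 17.9, 18.2 and 18.5 FPKM with acoustics off (log2 difference 0.49, SE 0.17, adjusted p = 0.20). Dtd2, for an editing deacylase, had 12.3, 7.53 and 7.35 FPKM with acoustics on, against 6.30, 6.04 and 6.92 FPKM with acoustics off (log2 difference 0.41, SE 0.20, adjusted p = 0.31). Both were higher in every acoustics-on library, and so was Pstk. Without overlap, 3 of the 10 were thus higher and 0 lower, against 17.1% and 17.7% of all tested genes. Aimp2, for another scaffold, had 41.7, 37.6 and 24.01 FPKM with acoustics on, against 24.5, 26.8 and 27.2 FPKM with acoustics off (log2 difference 0.35, SE 0.21, adjusted p = 0.36), with acoustics-on replicate 3 below the acoustics-off libraries.

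None of the 13 mitochondrial translation and amidotransferase genes passed, against 2.07% of all tested genes. Their median log2 difference was 0.13. Mtrf1, for a mitochondrial release factor, had 7.09, 8.17 and 6.58 FPKM with acoustics on, against 5.27, 5.87 and 5.76 FPKM with acoustics off (log2 difference 0.32, SE 0.13, adjusted p = 0.25). Qrsl1, for a subunit of the amidotransferase that makes mitochondrial glutaminyl-tRNA, had 8.74, 6.93 and 7.44 FPKM with acoustics on, against 5.82, 6.27 and 5.88 FPKM with acoustics off (log2 difference 0.31, SE 0.13, adjusted p = 0.26). The elongation factor gene Tsfm had 43.4, 22.01 and 20.6 FPKM with acoustics on, against 16.7, 18.6 and 17.6 FPKM with acoustics off (log2 difference 0.59, SE 0.27, adjusted p = 0.28). These 3 and Mtfmt were higher in every acoustics-on library. Without overlap, 4 of the 13 were thus higher and 0 lower, against 17.1% and 17.7% of all tested genes.

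Of the 7 cytosolic elongation genes and the 6 tested genes of eIF2alpha kinases and GCN2 partners, 0 passed, against 2.07% of all tested genes. Eef2, for the factor that moves the ribosome along, had 2008, 1994 and 2089 FPKM with acoustics on, against 3227, 2866 and 2847 FPKM with acoustics off (log2 difference -0.55, SE 0.16, adjusted p = 0.15), and every acoustics-on library was lower. Eif5a was higher in every acoustics-on library (log2 difference 0.46, SE 0.20, adjusted p = 0.25). It had 1264, 939 and 821 FPKM with acoustics on, against 724, 740 and 694 FPKM with acoustics off. The GCN2 gene Eif2ak4 had 4.43, 7.46 and 9.83 FPKM with acoustics on, against 8.42, 9.70 and 9.15 FPKM with acoustics off (log2 difference -0.35, SE 0.25, adjusted p = 0.44), with overlapping groups. Eif2ak1 was lower in every acoustics-on library (log2 difference -0.29, SE 0.18, adjusted p = 0.38). It had 10.7, 16.2 and 16.9 FPKM with acoustics on, against 17.9, 18.0 and 17.5 FPKM with acoustics off.

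Promoters were also searched for short DNA motifs. RefSeq promoters (GRCm38.p6, 250 bases before to 50 after a gene's start) matched 28 of the 38 genes, 14 cytosolic and 14 mitochondrial. The C/EBP-ATF element was searched as TGATGNAA on both strands. It was found in 5 of the 14 cytosolic and 0 of the 14 mitochondrial genes, against 3.97% of all 32851 promoters. The 5 promoters are shown because their genes hold the element, 5′ to 3′ on the gene's strand, with the matched letters in capitals.
Aars (chr8:111033592-111033891, plus strand): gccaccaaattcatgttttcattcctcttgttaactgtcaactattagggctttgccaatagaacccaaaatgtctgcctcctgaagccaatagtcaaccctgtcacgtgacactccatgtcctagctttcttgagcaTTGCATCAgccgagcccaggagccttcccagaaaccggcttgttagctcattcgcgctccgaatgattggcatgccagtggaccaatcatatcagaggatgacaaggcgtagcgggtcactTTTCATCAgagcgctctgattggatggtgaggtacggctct
Gars (chr6:55037751-55038050, plus strand): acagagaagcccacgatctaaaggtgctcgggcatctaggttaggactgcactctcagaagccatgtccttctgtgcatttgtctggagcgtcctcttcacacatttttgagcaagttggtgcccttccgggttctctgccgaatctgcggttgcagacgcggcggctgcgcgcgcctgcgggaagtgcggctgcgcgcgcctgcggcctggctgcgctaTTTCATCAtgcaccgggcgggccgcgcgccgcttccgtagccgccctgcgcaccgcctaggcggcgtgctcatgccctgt
Yars (chr4:129189653-129189952, plus strand): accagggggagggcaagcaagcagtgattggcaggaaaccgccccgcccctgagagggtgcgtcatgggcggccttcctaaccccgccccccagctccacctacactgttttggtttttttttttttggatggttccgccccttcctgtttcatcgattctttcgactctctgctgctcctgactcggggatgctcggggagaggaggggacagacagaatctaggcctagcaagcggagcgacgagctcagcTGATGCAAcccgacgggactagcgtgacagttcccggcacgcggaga
Iars (chr13:49681880-49682179, plus strand): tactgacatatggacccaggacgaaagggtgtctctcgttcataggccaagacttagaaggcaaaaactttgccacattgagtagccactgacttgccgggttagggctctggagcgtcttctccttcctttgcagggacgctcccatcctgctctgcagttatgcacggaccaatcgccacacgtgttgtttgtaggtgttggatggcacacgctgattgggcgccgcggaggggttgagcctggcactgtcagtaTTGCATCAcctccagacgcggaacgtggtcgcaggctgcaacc
Tars (chr15:11399609-11399908, minus strand): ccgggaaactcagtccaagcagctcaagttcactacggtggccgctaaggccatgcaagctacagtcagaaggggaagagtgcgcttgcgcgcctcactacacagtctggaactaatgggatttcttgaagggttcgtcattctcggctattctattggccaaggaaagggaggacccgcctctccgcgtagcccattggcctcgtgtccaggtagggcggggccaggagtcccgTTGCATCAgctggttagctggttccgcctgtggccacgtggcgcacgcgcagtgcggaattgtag
Counted from the annotated start as position 1, with no position 0, the matches began at -112 and 10 in Aars, -30 in Gars, 4 in Yars, 8 in Iars and -15 in Tars. Aars, Gars and Yars exceeded the acoustics-off range in acoustics-on replicates 1 and 3 and not in replicate 2, whereas Iars and Tars did not have that pattern. Of all 21 cytosolic genes, with or without the element or a promoter sequence, 11 (52.4%) had it. Whether the element and the pattern go together was not tested. The E-box CACGTG, bound by Myc and related factors, was found in 4 of 14 cytosolic and 1 of 14 mitochondrial genes (7.15% of all promoters). The gamma-activated site TTCNNNGAA was found in 2 of 14 and 1 of 14 (8.3% of all). Overlap between matches of different motifs was not resolved, and a match describes letters, not a bound site. No sequence was used for the other 10 genes, Cars, Nars and Wars among them.

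Some members share bases with a neighbour, and whether reads were counted by strand is not given in the sources used here. Hars and Hars2 run head to head on chromosome 18 and share 198 bases. Mars and Ddit3 lie on opposite strands and share 68 bases at their 3′ ends. Farsb shares 2315 bases with Sgpp2 and Cars2 shares 984 with Naxd, both on the opposite strand. On their own strand, Aars shares 1326 bases with the protein-coding gene Exosc6, which the gene table does not list, and Tarsl2 shares 923 with Tm2d3. Counting by strand would not separate these 2. Without strand, reads from shared bases of opposite genes cannot be told apart.

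Few settings called a synthetase gene. None was called without acoustics-on replicate 1, where 7.83% of all tested genes were called, 4.75% higher and 3.08% lower. The same held without replicate 2, where 3.4% of all tested genes were called, 2.08% higher and 1.32% lower, and without replicate 3, where 0.669% of all tested genes were called, 0.54% higher and 0.129% lower. With the length and GC correction alone, 0 synthetases passed while 5.32% of all tested genes were called, 2.76% higher and 2.56% lower. With this correction and no acoustics-on replicate 1, 0 passed while 11.8% of all tested genes were called, 6.26% higher and 5.56% lower, and with no replicate 3, 0 passed while 1.54% of all tested genes were called, 1% higher and 0.54% lower.

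Without acoustics-on replicate 2 and with the correction, which was tried after the data had been seen, 3 cytosolic genes rose, while 9.84% of all tested genes were called, 4.38% higher and 5.46% lower. They were Aars (log2 difference 0.75, SE 0.12, adjusted p = 0.022), Eprs (0.78, SE 0.13, adjusted p = 0.026) and Cars (0.85, SE 0.18, adjusted p = 0.047). With estimated library weights 17 of the 38 passed, while 55.9% of all tested genes were called, 27.9% higher and 28.1% lower. That estimate stopped before it converged, and it gave acoustics-on replicates 1, 2 and 3 weights of 0.0617, 13.4 and 0.191, so its acoustics-on values come almost wholly from replicate 2.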

How the data were processed

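RNA of RAW264.7 cells was sequenced in 3 acoustics-on and 3 acoustics-off libraries. The submitters' processing notes list Trim Galore (0.6.8), STAR (2.7.11), Salmon (1.4.0), DESeq2 (1.38.2) and GRCm38, without roles, and how each was set is not given. The labels name polyA RNA but also a kit for ribosomal RNA depletion. The authors deposited FPKM per gene and library. Median-of-ratios factors of these FPKM were 1.01 in all 6 libraries. The authors' deposited table of their comparison holds a signal (the mean normalised count), a log2 fold change with its error, a test score and p-values, and is quoted where named. No counts per library were used here, so total depth is unknown.

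Genes reaching 0.5 FPKM in 3 or more libraries were tested with limma 3.58.1 (R 4.3.3) on log2(FPKM + 1), acoustics on minus off, with a trended robust prior, no replicate term and Benjamini-Hochberg adjustment over all 11664. This scale understates changes of low genes. The procedure was tested on simulated data, with independent noise of equal spread in all libraries for a gene. Unequal spread between libraries was not simulated. One mitochondrial member enters all counts and medians but is not reported singly here. Members and lists were chosen with earlier results of these data known. Named in full were the 8 genes per class with the smallest p, less that member, genes of a stated role (Kars, Wars, Iars, Lars, Qars and Dars), and others said to be named after their values were seen; of the companion genes described, those other than the called one were picked after their values were seen. Gene positions, transcript lengths and GC content came from GENCODE M21 (GRCm38). The length and GC correction fitted a loess trend (span 0.5) per library over protein-coding genes. Other alternatives were a pseudocount of 0.1, other filters and scalings, a non-robust prior, a replicate block, library weights and leaving out each library.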

Additional observations from a re-analysis of the deposited data

How the results depend on the processing

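For 26 of the 38 synthetase genes, those chosen for description, 19 other settings gave 494 log2 differences. Of these, 463 kept their sign and their side of the threshold, 15 changed sign and 18 passed the threshold, 2 of them with the opposite sign. The 463 include all 26 of the median-of-ratios scaling, which could hardly differ because its factors were 1.01 in all 6 libraries. With library weights the sign changed for Eprs (-0.072), Cars (-0.11), Nars (-0.49), Yars (-0.12) and Tars (-0.23), and Nars and Tars were called lower there (adjusted p = 0.0040 and 0.013). Kars was at -0.026 with quantile normalization, -0.040 with the length and GC correction with or without the replicate block, and -0.0078, -0.035 and -0.077 with it and without acoustics-on replicate 1, 2 or 3. Nars was at -0.22 with the correction and without acoustics-on replicate 1. With a library left out, Nars lay between -0.18 and 0.75 and Tars between -0.098 and 0.16.

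No synthetase gene was called with only a library left out. With library weights, 2 cytosolic genes were called higher and 7 lower, and 7 mitochondrial genes higher and 1 lower. With the correction and without acoustics-on replicate 2, 3 cytosolic genes were called higher. The cytosolic median (0.15) was -0.072 with library weights and between 0.079 and 0.27 with a library left out, without acoustics-on replicate 3 and 2. The mitochondrial median (0.016) was -0.021 with the correction and without acoustics-on replicate 2, 0.088 with quantile normalization, 0.083 with library weights, 0.078 with the correction and without acoustics-on replicate 1, and between 0.022 and 0.088 with a library left out. The median of all genes was -0.046 with the correction with or without the replicate block, -0.0020 with library weights, -0.0051, -0.065 and -0.068 with the correction and without acoustics-on replicate 1, 2 or 3, and between -0.031 and -0.0080 with a library left out. The cytosolic minus mitochondrial difference lay between -0.036 and 0.19 with a library left out.

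Over all genes, 116 were called higher and 34 lower without a filter, and 116 and 36 at 1 FPKM in all libraries. There were 111 lower with quantile normalization, 322 higher and 299 lower with the correction, and 3254 and 3272 with library weights. With the correction, 730 and 648 were called without acoustics-on replicate 1, 511 and 637 without replicate 2, and 117 and 63 without replicate 3. With a library left out, between 14 and 554 were higher and between 5 and 359 lower. The cause was not tested. With the replicate block, 133 genes were called higher and 46 lower (157 and 84 with the correction as well), and no synthetase passed. Deviations of same-numbered libraries correlated at -0.073, -0.020 and -0.0039 across genes. Acoustics-on replicates 1, 2 and 3 correlated best with acoustics-off replicates 2, 3 and 1 (0.097, 0.045 and 0.117). With 3 libraries per group, these values do not settle whether same-numbered libraries were paired.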
